A study of Mus musculus with 6 samples.

Results

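The genes by which Kupffer cells, the resident macrophages of the liver, are recognised were followed in single nuclei of mouse liver. They were Clec4f, Vsig4, Cd5l, Timd4, Marco, Folr2, Spic, Id3, Clec1b and Adgre1, found by symbol as 10 of the 32285 genes in the count tables. Each was read per mouse in macrophage, monocyte and endothelial nuclei, with T cell nuclei as a measure of background, and by how often the genes occurred together in the same nucleus. From control to tumor-bearing liver the genes did not move as a block. In macrophage nuclei Clec4f and Vsig4 fell by 5.77 and 2.02 on the log2 scale, whereas Adgre1 and Spic differed by -0.13 and -0.12. In endothelial nuclei Id3 fell by 2.25.

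Kupffer cells sit inside the sinusoids, where they take up bacteria, platelets, lipoproteins and dying cells from portal blood. They settle in the liver before birth and renew there, and contact with endothelial cells, stellate cells and hepatocytes keeps their gene program on through Notch, TGF-beta family and liver X receptor signals. When the resident cells are lost, monocytes can enter the emptied niche and take up parts of the program, Clec4f earlier than Timd4. In fatty liver disease, other macrophages with lipid-handling genes accumulate beside them.

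Male DIAMOND mice, a 129A1/SvIm and C57BL/6J cross that develops steatohepatitis and liver tumors on diet, were given their diets from 2 months of age. Ctrl mice ate chow for 40 weeks, Pre-T mice ate a Western diet (WD, high fat with sugar water) for 40 weeks without tumors, and Post-T mice ate WD for 48 weeks and had tumors. There were 2 mice in each group and 1 library for each mouse, and Post-T differed from Pre-T in weeks on diet as well as in tumors. The labels call the Post-T libraries tumor in one field and liver in another, so the piece of tissue sampled is not known.

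The nuclei came from snap-frozen tissue, so the counts are of nuclear RNA, given here as unique molecular identifiers (UMIs). Libraries held 5638 to 8469 barcodes and 22453658 to 40307564 UMIs, and 39012 of 41882 barcodes passed the filter on genes and mitochondrial share. Macrophage nuclei numbered 321 and 309 in Ctrl, 533 and 879 in Pre-T, and 477 and 263 in Post-T, and all 10 macrophage markers used to name them were detected in each mouse. None of the 10 genes under study was used for naming or clustering in the values given. In an alternative run that also clustered on them, the macrophage class held 74 nuclei of Post-T 1 and 421 of Post-T 2. The libraries stood apart, since 98.7% or more of each Ctrl mouse's macrophage nuclei fell into 1 cluster that held Ctrl nuclei, 87.6% of those of Post-T 1 into another and 98.9% of those of Post-T 2 into yet another. In Post-T 1, 3712 of 5433 kept nuclei could not be named and 22 were hepatocytes. Of the barcode sequences, 181 occurred in more than 1 library, 159 of them among kept nuclei.

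The promoters of Clec4f, Vsig4 and Timd4 are shown because Clec4f and Vsig4 were the members called in macrophage nuclei and because Timd4 held the only motif match among the members. RefSeq windows on GRCm38.p6 run from 250 bases before to 50 bases after the start, and 9 of the 10 genes had one, Adgre1 being the exception. Each is written 5′ to 3′ on the gene's strand, in lower case, with a match in capitals. Clec4f lies at chr6:83656067-83656366 on the minus strand, Vsig4 at chrX:96293389-96293688 on the minus strand and Timd4 at chr11:46810549-46810848 on the plus strand.
Clec4f: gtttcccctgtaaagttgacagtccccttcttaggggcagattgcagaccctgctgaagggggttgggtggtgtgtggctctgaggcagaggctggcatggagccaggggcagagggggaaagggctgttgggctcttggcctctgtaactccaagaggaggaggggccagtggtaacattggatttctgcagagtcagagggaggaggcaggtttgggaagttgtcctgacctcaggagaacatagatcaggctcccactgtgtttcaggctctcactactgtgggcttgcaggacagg
Vsig4: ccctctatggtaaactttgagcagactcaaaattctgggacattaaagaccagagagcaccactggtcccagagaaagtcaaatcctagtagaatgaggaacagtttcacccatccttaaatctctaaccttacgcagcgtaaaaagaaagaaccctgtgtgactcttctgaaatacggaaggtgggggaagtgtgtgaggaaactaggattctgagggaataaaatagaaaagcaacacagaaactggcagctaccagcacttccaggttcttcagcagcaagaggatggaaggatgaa
Timd4: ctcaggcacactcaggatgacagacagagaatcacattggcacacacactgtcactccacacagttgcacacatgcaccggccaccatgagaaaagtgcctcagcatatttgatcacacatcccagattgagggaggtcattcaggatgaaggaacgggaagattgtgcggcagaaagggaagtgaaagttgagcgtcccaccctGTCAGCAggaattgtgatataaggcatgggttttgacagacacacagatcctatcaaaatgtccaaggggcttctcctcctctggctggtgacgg
The sequences searched, on both strands, were GAGGAAGT, a form bound by PU.1 and the related Spi-C, TGCTGAC, the core bound by the Maf factors, GTGGGAA, bound by the Notch partner RBPJ, and AGGTCA followed after NNNN by AGGTCA again, the repeat bound by liver X receptors. They were present in 3.20%, 4.67%, 6.38% and 0.015% of 32851 promoter windows of the same length. The capitals in Timd4 are TGCTGAC read on the other strand, and no other member window held any of these letters. A match is a description and no evidence of binding, and the lack of a match says only that the letters are not in the window.

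Clec4f encodes a C-type lectin that binds galactose-bearing ligands and in mice is a hallmark of Kupffer cells. The gene lies on chromosome 6 at 83644542 to 83656187 (GRCm38, minus strand). In macrophage nuclei its level was 1492 and 1838 CPM (UMIs of the gene relative to all UMIs of the class) in Ctrl, 638 and 554 in Pre-T, and 12.1 and 46.3 in Post-T. The groups did not overlap, and the levels fell stepwise from Ctrl over Pre-T to Post-T. Post-T differed from Ctrl by -5.77 ± 0.61 (log2, SE; edgeR quasi-likelihood adjusted p = 0.00425), and Clec4f was the member with the lowest adjusted p. The difference of Pre-T from Ctrl was -1.52 ± 0.50 (adjusted p = 0.220), and that of Post-T from Pre-T was -4.25 ± 0.58 (adjusted p = 0.0624), so neither passed 0.05. Those comparisons share mice, and p-values measure the spread between these 6 mice only. Without Ctrl 1 the Post-T difference from Ctrl kept its size but not its call (-5.78, adjusted p = 0.133). Without Post-T 1 or without Post-T 2, the Pre-T difference stayed at -1.52 and was called (adjusted p = 4.18e-06 and 2.13e-07).

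The share of macrophage nuclei with at least 1 Clec4f UMI was 66.7% (95% exact binomial interval 61.2 to 71.8) and 61.5% (55.8 to 66.9) in Ctrl. It was 36% (31.9 to 40.3) and 40.2% (36.9 to 43.5) in Pre-T. In Post-T it was 2.73% (13 of 477 nuclei, 1.46 to 4.62) and 6.46% (17 of 263, 3.81 to 10.1). The intervals cover counting error only, and the Pre-T intervals overlapped neither the Ctrl nor the Post-T intervals. T nuclei, which should lack Clec4f, had a UMI in 5.38% and 4.78% of Ctrl, 3.87% and 14.5% of Pre-T, 0 of 79 nuclei of Post-T 1, which allows up to 3.8%, and 0 of 144 of Post-T 2, which allows up to 2.08%. The Post-T 1 macrophage share thus lay below the limit that its T nuclei allow, and cannot be separated from background by this measure, while that of Post-T 2 lay above. Median depth was 1020 to 2889 UMIs in macrophage and 1215.5 to 1572.5 in T nuclei, with the deepest macrophage nuclei in Post-T. When each nucleus was thinned to 500 UMIs, the Clec4f share was 41.8% and 45.1% in Ctrl, 17.9% and 17.3% in Pre-T, and 0.730% and 2.27% in Post-T. The order of the groups was the same at equal depth.

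Timd4 encodes a phosphatidylserine receptor for the uptake of dying cells and marks long-resident Kupffer cells. Its macrophage level was 395 and 600 CPM in Ctrl, 322 and 294 in Pre-T, 12.7 in Post-T 1 and 143 in Post-T 2. Ctrl lay above Pre-T and Pre-T above Post-T in every mouse, and by ratio the Post-T mice lay further apart than the mice of any other group. The differences were -0.72 for Pre-T and -2.58 ± 1.14 for Post-T from Ctrl, and neither passed the test (adjusted p = 0.810 and 0.379). Without Post-T 1 the difference of Post-T from Ctrl was -1.65 (adjusted p = 0.000616), and without Post-T 2 it was -5.15 (adjusted p = 3.09e-11). In Post-T 1 the Timd4 level was close to that of its T nuclei, at 8.21 CPM, whereas in Post-T 2 the T nuclei held 4.19 CPM.

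**Figure D1:**
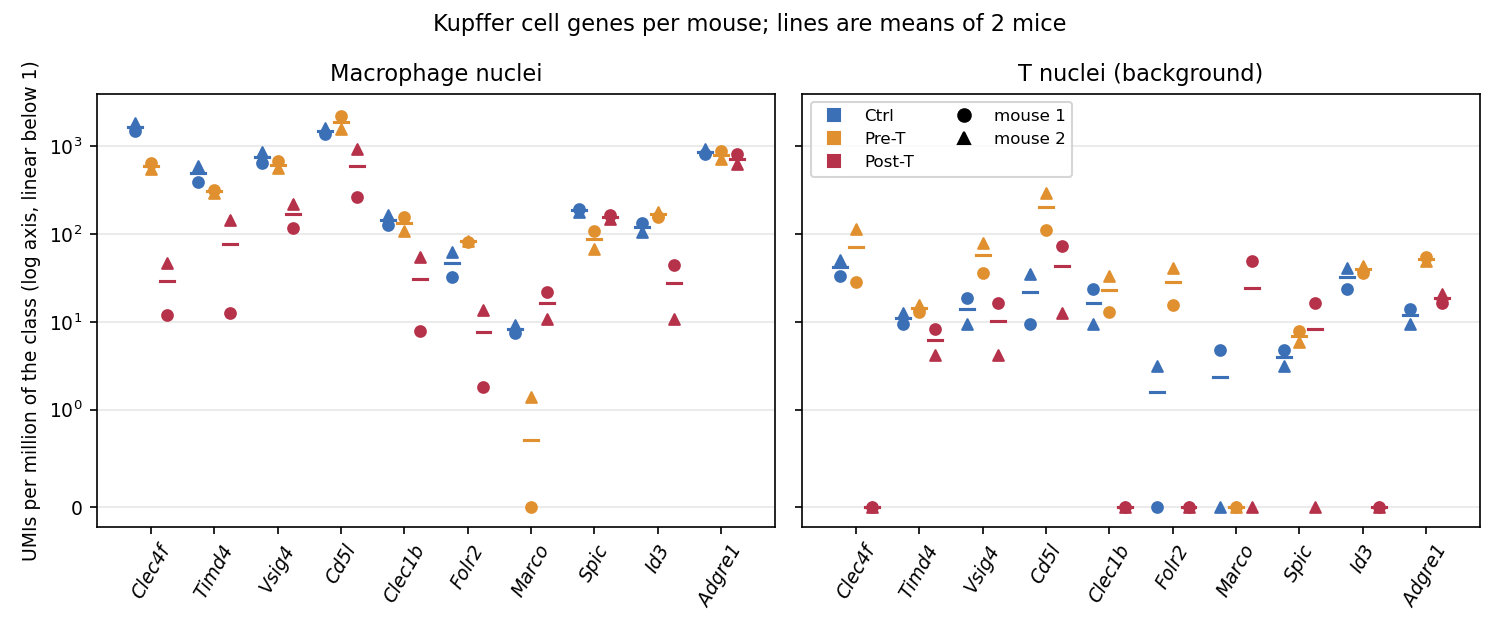
Level of each of the 10 genes (CPM, log scale) in macrophage and in T nuclei, 1 point for each of the 6 mice, coloured by group. Clec4f falls from 1492 and 1838 CPM in Ctrl to 12.1 and 46.3 CPM in Post-T macrophage nuclei, while Adgre1 stays between 632 and 926 CPM.

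Vsig4 encodes a complement receptor with which Kupffer cells catch opsonised bacteria. Its macrophage level was 650 and 868 CPM in Ctrl, 673 and 564 in Pre-T, and 119 and 222 in Post-T. Ctrl and Pre-T overlapped, and both Post-T mice lay below all 4 others. Vsig4 fell by 2.02 ± 0.34 (log2, SE) from Ctrl to Post-T (adjusted p = 0.00927), and the difference of Post-T from Pre-T was -1.69 (adjusted p = 0.0964). The call against Ctrl was lost without Ctrl 1 (-2.10, adjusted p = 0.228) and without Ctrl 2 (-1.85, adjusted p = 0.164). T nuclei of the same mice held 4.19 to 78.5 CPM of Vsig4, with the highest value in Pre-T 2.

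Clec4f and Vsig4 were thus 2 of 10 members called between Post-T and Ctrl macrophage nuclei, both lower. Of all 17534 genes tested there, 2.85% were called, 1.98% in the lower direction. The median difference was -1.97 over the 10 members and 0.01 over all genes. No member was called for Pre-T against Ctrl, where 2.02% of genes were, or for Post-T against Pre-T, where 0.131% were. By unadjusted p under 0.05, 3 and 7 members passed in these. DESeq2 called 0 members for Pre-T against Ctrl (2.73% of genes). It called Clec4f, Vsig4, Folr2 and Id3, 4 members, as lower in Post-T than in Ctrl (3.9% of genes) and the same 4 genes as lower than in Pre-T (0.53% of genes). Without Post-T 1, edgeR called 3 members in Pre-T and 5 in Post-T, each against Ctrl, and 5 between the WD groups, and without Post-T 2 it called 4, 7 and 9. Each of these fits rests on 1 Post-T mouse. Without Ctrl 1 it called 0 in each.

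By ranges alone, 9 members were lower in both Post-T mice than in both Ctrl mice, against 25.6% of all genes tested, and 1 member, Marco, was higher, against 16.2%. Between Pre-T and Ctrl, Clec4f, Timd4, Marco and Spic were lower without overlap, against 19.9% of genes, and Folr2 and Id3 were higher, against 32%. Between Post-T and Pre-T, 7 members were lower, against 33.4%, and Marco and Spic were higher, against 9.73%. The plot of fold changes shows the same split, in which Clec4f, Timd4, Vsig4, Clec1b, Folr2, Id3 and Cd5l lie left of 0 in Post-T, Marco lies right of it and, against Ctrl, Spic and Adgre1 lie near 0.

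**Figure D2:**
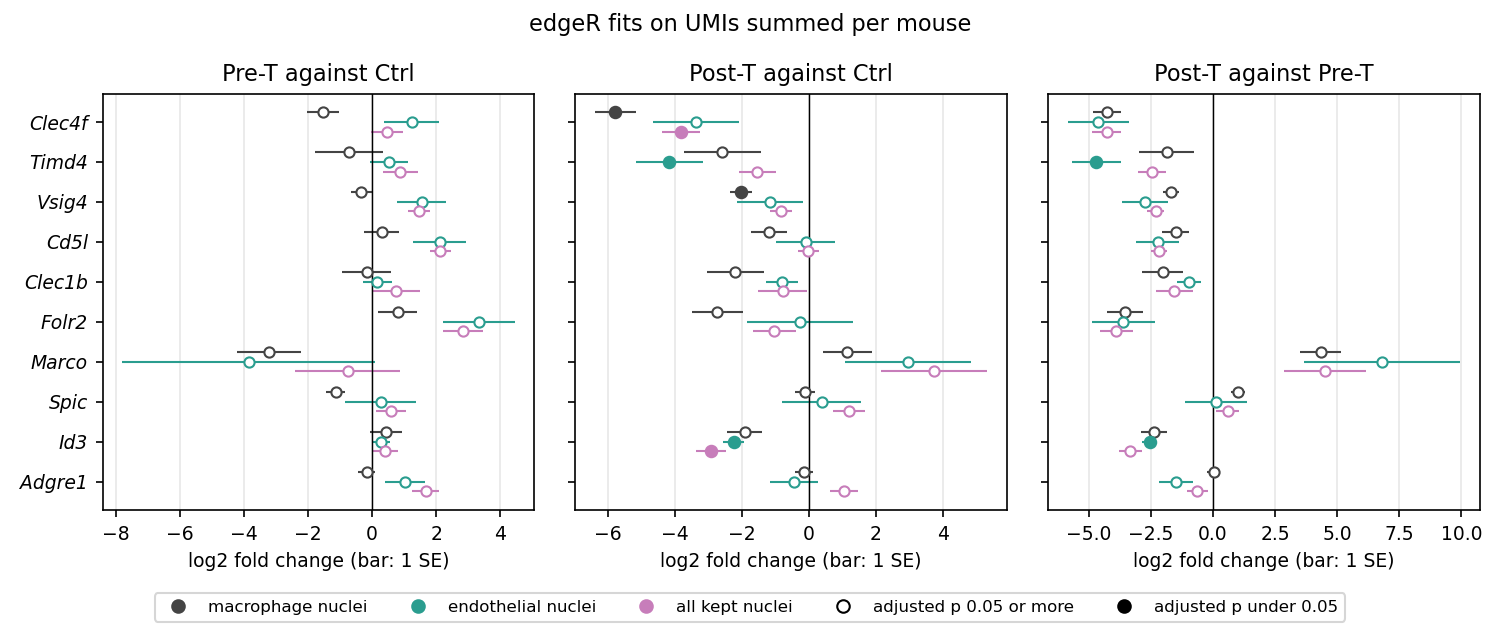
Log2 fold changes with SE from the edgeR fits for the 10 genes in macrophage, endothelial and all kept nuclei, in each comparison. In macrophage nuclei Clec4f (-5.77 ± 0.61) and Vsig4 (-2.02 ± 0.34) pass adjusted p of 0.05 for Post-T against Ctrl, and in endothelial nuclei Id3 (-2.25 ± 0.31) and Timd4 do.

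Cd5l encodes a secreted protein that protects macrophages from cell death and circulates bound to IgM. Its level in macrophage nuclei was 1388 and 1627 CPM in Ctrl, 2236 and 1597 in Pre-T, 266 in Post-T 1 and 932 in Post-T 2. Pre-T overlapped Ctrl, and both Post-T mice were below all others. The difference of Post-T from Ctrl was -1.20 ± 0.54 (adjusted p = 0.343), and without Post-T 2 it was -2.37 (adjusted p = 8.62e-09). Background moved too, with 9.46 and 34.9 CPM of Cd5l in Ctrl T nuclei, 112 and 296 in Pre-T, and 73.9 and 12.6 in Post-T.

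Clec1b encodes the receptor for podoplanin that platelets and Kupffer cells carry. Its macrophage level was 127 and 164 CPM in Ctrl, 157 and 110 in Pre-T, 7.83 in Post-T 1 and 54.5 in Post-T 2. Ctrl and Pre-T overlapped, and Post-T lay lower with a difference from Ctrl of -2.19 ± 0.84 (adjusted p = 0.288). Clec1b overlaps Clec9a on the same strand, so its counts are uncertain.

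Folr2, the folate receptor of resident macrophages, stood at 32.1 and 62.3 CPM in Ctrl macrophage nuclei, 82.4 and 84.0 in Pre-T, 1.81 in Post-T 1 and 13.6 in Post-T 2. Pre-T lay above Ctrl and Post-T below it without overlap, with differences from Ctrl of 0.80 (adjusted p = 0.628) and -2.73 ± 0.75 (adjusted p = 0.112). The difference of Post-T from Pre-T was -3.53 (adjusted p = 0.143). Without Post-T 1 and without Post-T 2, Folr2 was called against Pre-T (-2.42 and -5.28, adjusted p = 0.00703 and 1.03e-06). The gene overlaps Gm10602 and Gm45319 on the other strand.

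Marco encodes a scavenger receptor for bacteria and particles. It was sparse in macrophage nuclei, with 4 UMIs in each Ctrl mouse, 0 and 3 in Pre-T, and 36 and 8 in Post-T, or 7.56, 9.23, 0, 1.38, 21.7 and 10.9 CPM. The T nuclei of Post-T 1 held 49.3 CPM of Marco, above its macrophage nuclei, so the highest value over the whole class was at background. A small cluster of 52 nuclei of that mouse, described below, lay above it at 101 CPM, from a part of those 36 UMIs. Unnamed low-depth nuclei of the same mouse held 66.9 CPM, so the cluster is not clearly above background. No difference was called, the largest being 4.35 for Post-T against Pre-T (adjusted p = 0.0848).

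Spic and Id3 are the transcriptional regulators among the members. Spic encodes Spi-C, an ETS factor that heme induces in iron-recycling macrophages. Its macrophage level was 193 and 180 CPM in Ctrl, 109 and 68.3 in Pre-T, and 165 and 149 in Post-T. Both Pre-T mice were the lowest, and the difference of Pre-T from Ctrl was -1.13 ± 0.30 (adjusted p = 0.0883). Without Post-T 1 or without Post-T 2 that difference of Spic was -1.14 (adjusted p = 0.00395 and 0.00142). Post-T lay -0.12 ± 0.30 from Ctrl (adjusted p = 0.875), with non-overlapping but close values. At 500 UMIs per nucleus, Spic was found in 7.57% and 5.75% of Ctrl, 4.03% and 2.83% of Pre-T, and 6.76% and 6.02% of Post-T macrophage nuclei.

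Id3 encodes a helix-loop-helix protein that binds partner factors without binding DNA and is needed for Kupffer cells to form. Its macrophage level was 134 and 106 CPM in Ctrl, 157 and 178 in Pre-T, and 44.0 and 10.9 in Post-T. Pre-T lay above Ctrl and Post-T below it. The difference of Post-T from Ctrl was -1.92 ± 0.53 (adjusted p = 0.110), and that from Pre-T was -2.35 (adjusted p = 0.169). Without Post-T 1 and without Post-T 2, Id3 was called against Ctrl (-3.32 and -1.33, adjusted p = 9.18e-05 and 0.00358).

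Adgre1 encodes the adhesion receptor that the classical antibody to mouse macrophages detects. Its macrophage level was 818 and 926 CPM in Ctrl, 890 and 716 in Pre-T, and 812 and 632 in Post-T. The Post-T difference from Ctrl was -0.13 ± 0.27 (adjusted p = 0.845) and that of Pre-T was -0.16 (adjusted p = 0.829). At 500 UMIs the share with Adgre1 was 23.3% to 26.3% in all 6 mice. The T nuclei held 9.51 to 54.7 CPM of Adgre1.

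The make-up of the 10-gene signal shifted with these changes. Of the UMIs of the 10 genes in macrophage nuclei, Clec4f made up 28.5% and 28.8% in Ctrl, 12.1% and 13.3% in Pre-T, and 0.8% and 2.1% in Post-T. Cd5l took 26.5% and 25.5% in Ctrl, 42.5% and 38.3% in Pre-T, and 18.2% and 42.1% in Post-T. Adgre1 took 14.5% to 17.2% in Ctrl and Pre-T, 55.6% in Post-T 1 and 28.6% in Post-T 2. These shares are of UMIs and do not compare the genes per length.

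Other signals in the same nuclei moved with the groups. The summed level of 11 monocyte markers in macrophage nuclei was 385 and 390 CPM in Ctrl, 879 and 868 in Pre-T, and 2679 and 816 in Post-T. In Post-T 1 macrophage nuclei the 10 macrophage markers summed to 2806 CPM, close to that monocyte sum. Monocyte nuclei of Post-T 1 held 3154 CPM of the monocyte and 1316 CPM of the macrophage markers. The sum of 7 hepatocyte markers, all detected, was 16004 and 12579 CPM in Ctrl, 3309 and 10454 in Pre-T, and 3415 and 9616 in Post-T. Their part in the levels of Clec4f, Timd4 and the other members was not tested.

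In single macrophage nuclei, the members occurred together. At 500 UMIs per nucleus, the mean number of members found was 1.61 and 1.74 in Ctrl, 1.35 and 1.24 in Pre-T, and 0.512 and 0.745 in Post-T. T nuclei had 0.0708 and 0.0718 in Ctrl, 0.151 and 0.334 in Pre-T, and 0.110 and 0.023 in Post-T. The macrophage means lay above the T means in each mouse, and the 3 groups of macrophage means did not overlap. At least 3 members were found in 26.5% and 27.5% of Ctrl, 21% and 16.4% of Pre-T, and 2.10% and 4.94% of Post-T macrophage nuclei. Without thinning, a single nucleus held up to 8 members in each Ctrl mouse, 9 in each Pre-T mouse, 6 in Post-T 1 and 7 in Post-T 2.

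**Figure D3:**
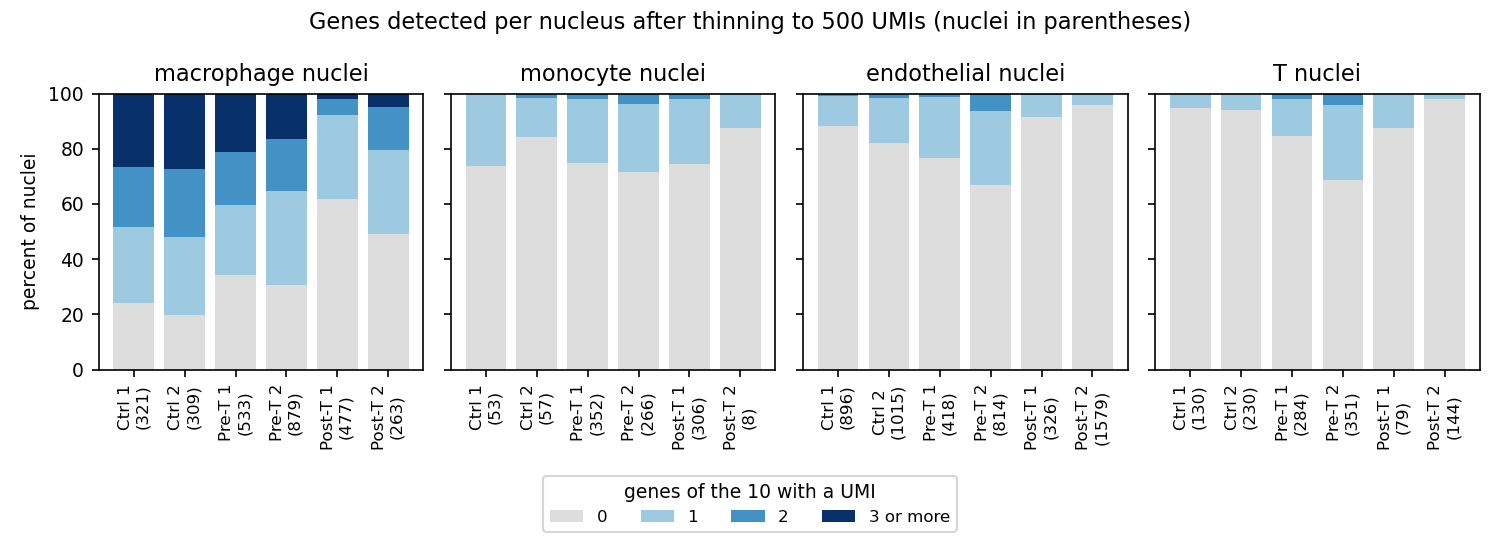
Distribution of the number of the 10 genes found per nucleus after thinning to 500 UMIs, by class and mouse. Macrophage nuclei with at least 3 of the genes make up 26.5% and 27.5% in Ctrl and 2.10% and 4.94% in Post-T.

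Macrophage nuclei with Adgre1 but without Clec4f, Timd4, Vsig4 and Cd5l were 11 of 164 Adgre1-positive nuclei in Ctrl 1 (6.71%) and 11 of 129 in Ctrl 2 (8.53%). They were 54 of 303 (17.8%) and 65 of 478 (13.6%) in Pre-T, and 157 of 285 (55.1%) and 74 of 163 (45.4%) in Post-T. The groups did not overlap, although the Post-T nuclei were the deepest. No test was made of these shares.

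Clec4f and Timd4 were found in the same macrophage nucleus 93 and 95 times in Ctrl, 105 and 177 in Pre-T, and 5 and 9 in Post-T. Clec4f without Timd4 was found in 121 and 95 nuclei of Ctrl, 87 and 176 of Pre-T, and 8 and 8 of Post-T. Timd4 without Clec4f was found in 14 and 23 nuclei of Ctrl, 41 and 58 of Pre-T, 8 of Post-T 1 and 40 of Post-T 2. Clec4f alone was thus more frequent than Timd4 alone in each Ctrl and Pre-T mouse, and less frequent in Post-T 2.

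Clec4f-positive macrophage nuclei carried Cd5l, Vsig4, Timd4, Folr2 and Adgre1 more often than Clec4f-negative ones in 6 of 6 mice, with no thinning to equal depth. For Clec1b, Id3 and Spic this was so in 5 mice, and for the sparse Marco in 4. Cd5l was found in 74.3% and 77.9% of Clec4f-positive nuclei in Ctrl, 94.3% and 85.6% in Pre-T, and 69.2% and 94.1% in Post-T. Among Clec4f-negative nuclei Cd5l was found in 38.3% and 30.3%, 44.3% and 51.1%, and 27.8% and 39.0%. Of the 13 and 17 Clec4f-positive nuclei of the Post-T mice, those of Post-T 1 had a lower Cd5l share than Ctrl and those of Post-T 2 a higher one.

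Vsig4 was found in 51.9% and 48.9% of Clec4f-positive Ctrl nuclei, 69.3% and 64.9% in Pre-T, and 61.5% and 64.7% in Post-T, against 11.8% to 23.5% of the Clec4f-negative nuclei of the 6 mice. Adgre1 went with Clec4f in Ctrl, at 63.6% and 54.2% against 26.2% and 21.8%, but in Post-T 1 it was found in 61.5% with and 59.7% without Clec4f. Deeper nuclei hold more of every gene, and part of such pairing follows from depth. At 500 UMIs the Clec4f and Timd4 pair was found 1.28 and 1.21 times as often as the product of their shares gives in Ctrl, and 2.03 and 1.99 times in Pre-T. For Clec4f and Vsig4 these ratios were 1.28 and 1.36 in Ctrl, and 1.78 and 1.76 in Pre-T. The Pre-T values lay above the Ctrl values for both pairs, and the difference was not tested. Such a ratio can be no higher than 1 over the larger share. The mean Clec4f share at 500 UMIs was 43.4% in Ctrl and 17.6% in Pre-T, so the ratios of the groups are not on the same scale.

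The Pre-T macrophage nuclei were split between clusters with high and low levels of Clec4f, Timd4 and Cd5l. Since the class is spread over different clusters in different mice, the class levels of Clec4f and Timd4 mix these. One cluster with 47.3% and 38.3% of the Pre-T 1 and Pre-T 2 macrophage nuclei held 825 and 784 CPM of Clec4f, 424 and 457 of Timd4, and 2907 and 2339 of Cd5l. Another, led by Itgad, with 22.9% and 37.2% of the nuclei, held 24.8 and 85.4 CPM of Clec4f, 12.4 and 15.8 of Timd4, and 107 and 247 of Cd5l. A further cluster with 29.5% and 24.3% lay in between, with 381 and 567 CPM of Clec4f and 135 and 163 of Timd4. Adgre1 was 1086 and 938, 343 and 337, and 441 and 543 CPM in these 3 clusters. Id3 did not follow Clec4f there, at 164 and 194, 157 and 155, and 112 and 155 CPM. The Ctrl cluster held 1645 CPM of Clec4f, 490 of Timd4, 1495 of Cd5l and 868 of Adgre1 over its 627 nuclei, so the richest Pre-T cluster had less Clec4f and more Cd5l than it. Clusters with macrophage markers but led by hepatocyte genes at low depth were kept out of the class. They held 2521 nuclei of Pre-T 2, or 32.1% of its kept nuclei, with 198 CPM of Clec4f and 496 of Cd5l.

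In Post-T 1, the cluster with 87.6% of the macrophage nuclei held 3.89 CPM of Clec4f, 1.95 of Timd4 and 174 of Cd5l, beside 833 of Adgre1 and 145 of Spic. A further 52 nuclei of Post-T 1, or 10.9%, lay in the cluster that made up 98.9% of the class in Post-T 2. There Clec4f was 70.4 and 47.0 CPM, Timd4 131 and 145, and Cd5l 1369 and 934 in Post-T 1 and Post-T 2. Spic was 453 and 148 CPM there, and Marco 101 and 11.1 CPM. T nuclei of Post-T 1 held 49.3 CPM of Marco from 6 UMIs, and its larger macrophage cluster held 16.9 CPM. In this cluster, led by Gm13710, St18 and Gpnmb, the Post-T mice thus lay closer to each other in Clec4f and Timd4 than over the whole class.

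**Figure D4:**
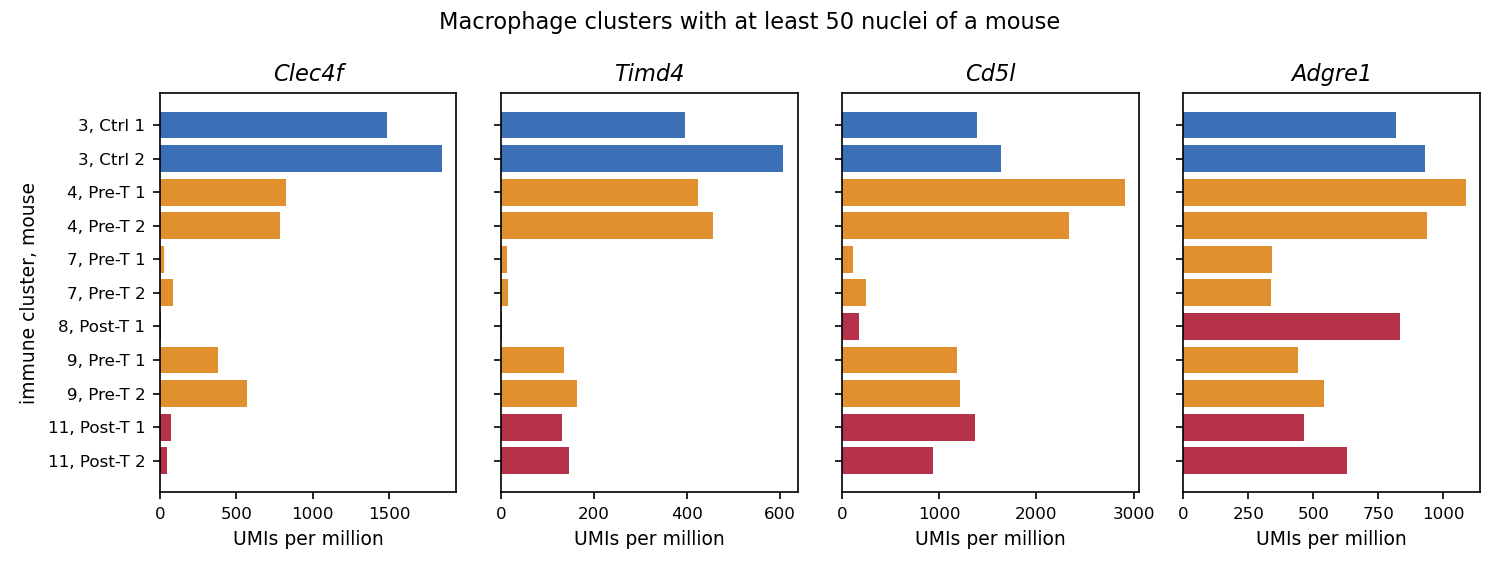
Levels of Clec4f, Timd4, Cd5l and Adgre1 (CPM) in the clusters that make up the macrophage class, by mouse. Mice with few nuclei in a cluster are not drawn for it. The Ctrl cluster holds 1487 and 1848 CPM of Clec4f in the Ctrl mice, and the cluster with 87.6% of the Post-T 1 macrophage nuclei holds 3.89 CPM.

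Groups of genes with known links to Kupffer cells gave the setting of these levels in macrophage nuclei. Of 15 other Kupffer cell genes, 4 fell and 0 rose from Ctrl to Post-T, against the 2.85% of all genes, with a median of -1.73. They were Cdh5, an adhesion molecule also of endothelium (-3.50, adjusted p = 0.00104), Paqr9 (-2.02, 0.0264), Il18bp, a decoy for an inflammatory cytokine (-2.13, 0.0292), and Cd163, the haptoglobin-hemoglobin receptor (-6.80, 0.0329). Cd163 was 195 and 517 CPM in Ctrl, 21.9 and 9.23 in Pre-T, and 0.603 and 6.81 in Post-T. None of the 15 was called for Pre-T against Ctrl (median -0.42), and Cdh5 alone for Post-T against Pre-T (-2.53, adjusted p = 0.0260).

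Of 17 regulators and receptors that maintain Kupffer cells, such as the liver X receptors, Rbpj, Notch and TGF-beta receptors, 0 were called in any of the 3 comparisons. By unadjusted p under 0.05, 2 passed for Pre-T and 5 for Post-T, each set against Ctrl, and 1 passed between the WD groups. The lowest adjusted p for Post-T against Ctrl was that of Notch2 (1.16, adjusted p = 0.0739). Of 10 genes of lipid-associated macrophages, 8 rose and 0 fell from Ctrl to Pre-T, against the 2.02% of all genes, and 5 rose and 0 fell from Ctrl to Post-T. Trem2, a lipid receptor, rose by 3.06 (adjusted p = 0.0130) and 2.47 (adjusted p = 0.0306) in these comparisons, and Itgax, an integrin, by 3.92 (adjusted p = 0.00281) and 4.15 (adjusted p = 0.00104).

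In the monocyte class, 53 and 57 nuclei came from Ctrl, 352 and 266 from Pre-T, 306 from Post-T 1 and only 8 from Post-T 2. Adgre1 stood above the T level in monocyte nuclei of each mouse, at 571 and 445 CPM in Ctrl, 330 and 252 in Pre-T, and 501 and 185 in Post-T. The Post-T 2 value rests on 3 UMIs in 1 nucleus. These levels were below those of macrophage nuclei in each mouse. Clec4f was 33.1 and 11.1 CPM in Ctrl, 18.2 and 85.9 in Pre-T, and 6.06 and 61.6 in Post-T, the last from 8 nuclei, and outside Post-T it lay at or under the T level when rounded to 3 digits.

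Cd5l, Timd4 and Marco, 3 of 10 members, were called for Pre-T against Ctrl in monocyte nuclei, against 2.46% of 14338 genes tested. Cd5l was higher (2.23 ± 0.64, adjusted p = 0.0294), at 41.4 and 22.3 CPM in Ctrl and 70.0 and 208 in Pre-T, below the 112 and 296 CPM of Pre-T T nuclei. Timd4 was lower (-2.37, adjusted p = 0.0288), from 15 UMIs in 6 nuclei of Ctrl 1 and 1 UMI in Ctrl 2. Marco was lower (-5.80, edgeR adjusted p = 0.00636), from 5 UMIs in 1 nucleus of Ctrl 1 and 0 UMIs in Ctrl 2 and both Pre-T mice. The Ctrl mean was 8.70 times a floor of 3 counts over the Pre-T group. Since that mean rests on 1 nucleus, the ratio is no lower bound for the group. Each call was lost without Ctrl 1, where Cd5l had an adjusted p of 0.505 and Timd4 a difference of 0.26 (adjusted p = 0.969) and Marco had no UMI in either group. Without Pre-T 1 none was called, without Pre-T 2 only Timd4 was (-3.87, adjusted p = 0.0358), and without Ctrl 2 only Timd4 and Marco were. DESeq2 called 0 of the 10 (0.328% of genes).

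For Post-T against Ctrl, 1 member was called, against 1.14% of genes. It was Timd4 (edgeR adjusted p = 0.000496), with 15 UMIs in Ctrl 1, 1 in Ctrl 2 and 0 in both Post-T mice. The call was lost without Ctrl 1 and without Post-T 1. The Ctrl mean of 67.7 CPM was 11.5 times the floor of 5.86 CPM, but it came mostly from Ctrl 1, with Ctrl 2 at 11.1 CPM. For Post-T against Pre-T, 1 member was called, against 0.962%. It was Marco (adjusted p = 0.0224), with 7 UMIs in Post-T 1 and 0 in Post-T 2 and both Pre-T mice, and the call was lost without Post-T 1, Pre-T 1 or Pre-T 2. DESeq2 called 0 members in both comparisons, in which 0.139% and 0.0907% of genes passed.

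**Figure D5:**
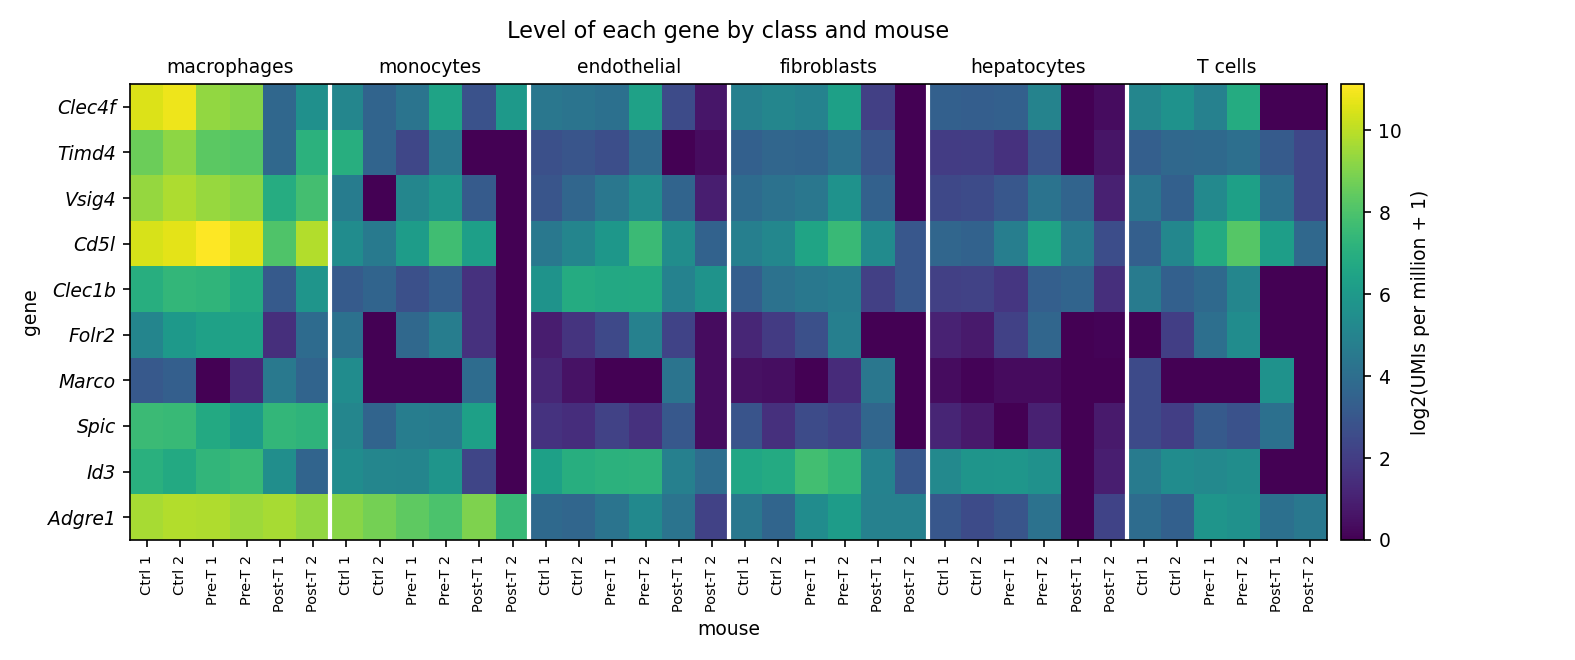
Level of each gene, as log2(CPM + 1), in macrophage, monocyte, endothelial, fibroblast, hepatocyte and T nuclei of each mouse. Id3 and Clec1b stand above the T nuclei in the endothelial class, and Adgre1 stands above them in the monocyte class.

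Endothelial nuclei numbered 896 and 1015 in Ctrl, 418 and 814 in Pre-T, and 326 and 1579 in Post-T. Id3 and Clec1b were the members that they held above the T level in each mouse. Id3 was 79.6 and 126 CPM in Ctrl, 139 and 147 in Pre-T, and 28.0 and 14.6 in Post-T, against 23.7 to 43.2 CPM in the T nuclei of Ctrl and Pre-T and 0 in those of Post-T. Both Post-T mice lay below all 4 others. Id3 fell by 2.25 ± 0.31 from Ctrl to Post-T (adjusted p = 0.00398) and by 2.54 from Pre-T to Post-T (adjusted p = 0.00649). The call against Ctrl held in each alternative run, with adjusted p from 6.51e-05 to 0.0286. That against Pre-T was lost without Pre-T 1 (adjusted p = 0.0510) and without Pre-T 2 (adjusted p = 0.0990).

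With Timd4, Id3 made up 2 of 10 members called for Post-T against Ctrl, against 7.88% of 18834 genes tested, and 2 for Post-T against Pre-T, against 4.37%. None was called for Pre-T against Ctrl, against 0.223% of genes. By unadjusted p under 0.05, 1 member passed there. DESeq2 gave 0 there (1.56% of genes), 2 members for Post-T against Ctrl (8.48%), Clec4f and Id3, and 3 for Post-T against Pre-T (5.17%), Clec4f, Timd4 and Id3. Endothelial Timd4 rested on 13 and 15 UMIs in Ctrl, 6 and 26 in Pre-T, and 0 and 1 in Post-T, with differences of -4.16 (adjusted p = 0.0390) and -4.69 (adjusted p = 0.0337). It was below the Timd4 level of T nuclei in each mouse and is read as background. With 1 mouse left out in turn, endothelial Timd4 was called against Ctrl only without Pre-T 1 (adjusted p = 0.0492), and against Pre-T in no case.

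Clec1b was 51.0 and 115 CPM in endothelial nuclei of Ctrl, 104 and 106 in Pre-T, and 29.2 and 52.0 in Post-T, against 0 to 33.3 CPM in T nuclei. The groups of Ctrl and Post-T overlapped, with a difference of -0.80 (adjusted p = 0.387). Endothelial nuclei with Clec1b carried Stab2, a scavenger receptor of sinusoidal endothelium, in 88.8% and 83.9% of cases in Ctrl, 83.3% and 83.4% in Pre-T, and 75% and 91.1% in Post-T. Those without Clec1b carried it in 65.3% and 61.1%, 54.0% and 64.7%, and 47.1% and 69.6%. In the cluster led by Stab2, Clec4g and Bmp6, called the Stab2-led cluster below, Clec1b reached 117 and 222 CPM in Ctrl, and 180 and 165 in Pre-T. The 22 nuclei of Post-T 1 in that cluster held 163 CPM of Clec1b, within the range of the Ctrl and Pre-T mice there. Another cluster, led by Col13a1 and Stab2, made up 41.7% and 38.6% of the Ctrl endothelial nuclei and held less Clec1b. It had 24.9 and 51.6 CPM in Ctrl, against 23.7 CPM in T nuclei of Ctrl 1, and 72.4 and 71.5 CPM in Pre-T.

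Id3 by contrast was not tied to one endothelial cluster. It was 113 and 164 CPM in the Stab2-led cluster of Ctrl and 164 and 180 in that of Pre-T, and 111 and 209, and 172 and 202, in a cluster led by Vwf and Edn1. The cluster led by Col13a1 and Stab2 held less Id3, at 47.3 and 70.3 CPM in Ctrl and 86.3 and 103 in Pre-T. In the Esm1-led cluster, which made up 71.5% and 98.7% of the Post-T endothelial nuclei, Id3 was 27.6 and 14.8 CPM in Post-T, whereas the 36 nuclei of Pre-T 1 in that cluster held 144 CPM. In Post-T 1 the 59 nuclei of the Vwf-led cluster held 20.9 CPM of Id3, and the 22 nuclei of the Stab2-led cluster held 61.0 CPM. The 11 and 7 nuclei of Post-T 2 in these clusters held 0 CPM. Within the Vwf-led and Stab2-led clusters Id3 was thus lower in Post-T than in Ctrl and Pre-T, on few Post-T nuclei and without a test. The Esm1-led cluster held 1 Ctrl nucleus, so Post-T cannot be set against Ctrl there.

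None of the other members was above the T level in endothelial nuclei of each mouse. Clec4f was 20.2, 18.4, 16.4, 82.0, 4.87 and 0.608 CPM from Ctrl 1 to Post-T 2, against 33.1, 50.7, 28.7, 114, 0 and 0 CPM in T nuclei. Cd5l was 20.6, 32.1, 59.0, 189, 42.6 and 10.3 CPM in the same order, highest in Pre-T 2 as in T nuclei. Among endothelial nuclei without Clec4f, the share with a macrophage marker was 4.99%, 3.27%, 27.2%, 59.0%, 22.4% and 2.92%, and the summed macrophage markers in T nuclei were 137, 171, 433, 851, 370 and 143 CPM, both highest in Pre-T 2.

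Endothelial and stellate cells supply the signals that keep Kupffer cells in place, and 10 such genes were read in both. In endothelial nuclei 1 of them, the Notch ligand Dll4, was called for Post-T against Ctrl (2.28 ± 0.33, adjusted p = 0.00532) and against Pre-T (2.14, adjusted p = 0.014), and 0 for Pre-T against Ctrl. Over all genes 7.88%, 4.37% and 0.223% were called in these comparisons. Dll4 was 35.8 and 47.0 CPM in Ctrl, 74.5 and 33.1 in Pre-T, and 183 and 184 in Post-T. The Post-T endothelial nuclei lay mostly in the Esm1-led cluster, which held 1 Ctrl nucleus, so for Dll4 cluster and group cannot be told apart. In fibroblast nuclei, where 3.15% of genes were called, Il34, a ligand of the receptor Csf1r, rose by 1.78 from Ctrl to Post-T (adjusted p = 0.0340).

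Id3 was also lower in Post-T in fibroblast nuclei, which held 18.7% and 20.8% of all Id3 UMIs in Ctrl. Hepatocyte nuclei held the most Id3 UMIs in Ctrl, 50.7% and 51.0%, at 36.6 and 55.2 CPM, with 55.8 and 48.9 CPM in Pre-T, 0 in the 22 hepatocyte nuclei of Post-T 1 and 0.906 CPM in Post-T 2. The Id3 level in fibroblast nuclei was 95.7 and 112 CPM in Ctrl, 217 and 162 in Pre-T, and 29.96 and 7.16 in Post-T, with no overlap between the groups. The Post-T values rest on 18 UMIs over 215 nuclei of Post-T 1 and 1 UMI over 57 nuclei of Post-T 2. Id3 fell by 2.20 ± 0.38 from Ctrl to Post-T (adjusted p = 0.00625) and by 2.83 ± 0.38 from Pre-T to Post-T (adjusted p = 0.0202). In these comparisons 1 member was lower, Id3 each time, and Marco was higher in Post-T than in Ctrl (4.95, adjusted p = 0.0374), against 3.15% and 0.184% of genes called. For Pre-T against Ctrl 2 members were called, Adgre1 (1.61, adjusted p = 0.0294) and Cd5l (1.92, adjusted p = 0.0477), both higher, against 3.96% of genes. Fibroblast Cd5l was 88.3 and 184 CPM in Pre-T and Adgre1 was 42.0 and 69.4 CPM, against 112 and 296 CPM of Cd5l and 54.7 and 49.0 CPM of Adgre1 in Pre-T T nuclei, so Cd5l in both mice and Adgre1 in Pre-T 1 were at background. The Marco call rests on 12 UMIs in Post-T 1, at 19.97 CPM below the 49.3 CPM of its T nuclei, and is read as background too.

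Across the named classes of at least 20 nuclei, Vsig4, Cd5l, Spic and Adgre1 were highest in macrophage nuclei in 6 of 6 mice, and Clec4f, Timd4, Clec1b and Folr2 in 5 of 6, all but Post-T 1. Genes most like Clec4f were ranked by Pearson's r of log2(CPM + 1) over 64 sums of class and mouse, which share libraries and depth. The most alike outside the 10 were Clec4n (r = 0.716), Ksr2 (0.674), Akr1b10 (0.669), C1qb (0.665) and Il18bp (0.658). Among the 10 they were Vsig4 (0.812), Cd5l (0.742), Timd4 (0.735) and Folr2 (0.723), and the least alike were Spic (0.345) and Marco (0.0045).

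Summed over all kept nuclei, a measure that needs no classes but in which fewer nuclei of a type and less RNA per nucleus cannot be told apart, Clec4f was 53.1 and 57.3 CPM in Ctrl, 53.7 and 135 in Pre-T, and 5.16 and 2.16 in Post-T. Id3 was 48.4 and 70.4, 100 and 94.4, and 11 and 3.76 CPM. Both were lower in Post-T than in all 4 other mice. They were the 2 members called for Post-T against Ctrl, against 2.23% of genes, with -3.82 ± 0.57 for Clec4f (adjusted p = 0.0392) and -2.92 ± 0.44 for Id3 (adjusted p = 0.0405). Without either Ctrl mouse, or without either Pre-T mouse, no member was called.

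Adgre1 over all kept nuclei was 33.8 and 28.4 CPM in Ctrl, 105 and 145 in Pre-T, and 89.8 and 33.1 in Post-T, and Cd5l was 50.6 and 53.2, 204 and 365, and 50.3 and 43.4 CPM. Pre-T lay above Ctrl for both, and edgeR called 0 of 21790 genes for Pre-T against Ctrl and 0 for Post-T against Pre-T, a share of 0% each. By unadjusted p under 0.05, 4281 and 5291 genes passed, 4 and 7 members among them. DESeq2 called 2119 genes (9.72%) and 2844 genes (13.1%), with 4 members, Vsig4, Cd5l, Folr2 and Adgre1, higher in Pre-T than in Ctrl, and 7 members called between the WD groups. For Post-T against Ctrl it called 3 members, Clec4f, Id3 and Marco (14.8% of genes). For Pre-T against Ctrl, edgeR without Post-T 1 called Cd5l (2.19, adjusted p = 0.0381) and Adgre1 (1.72, adjusted p = 0.0383). Macrophage nuclei held 59.9% and 56.7% of all Clec4f UMIs in Ctrl, 66.8% and 41.3% in Pre-T, and 18.3% and 81.0% in Post-T, so in Post-T 1 most of the few Clec4f UMIs lay outside that class.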

How the data were processed

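Nuclei were isolated from snap-frozen liver of 6 mice and sequenced with 10x Genomics 3′ chemistry. The authors processed the reads with Cell Ranger 6.1.1 against mm10, per the submitters' processing notes and the labels, and deposited UMI counts per gene and barcode for each library, unnormalised and not yet filtered for doublets or free RNA. Nuclear RNA holds unspliced transcripts, so a count measures nuclear and not cytoplasmic RNA.

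The study's own cell type labels were not used here, and classes were rebuilt, so differences from the study may come from the classes. Nuclei with over 200 and under 5000 genes and under 5% mitochondrial UMIs were kept. Scanpy 1.11.5 clustered them on 2000 variable genes without the 10 members (30 principal components, 15 neighbours, Leiden resolution 1, no integration), and immune clusters were clustered again. A cluster was named from marker lists that hold none of the members, with at least 3 markers raised, and clusters led by genes of another class, or low in depth, stayed unnamed. Scrublet's automatic threshold marked 0 to 2 nuclei of a library, so it had not worked. Doublets were kept in the values given, and the nuclei with the highest scores, at 0.8% per 1000 nuclei, were left out as an alternative chosen after seeing the data.

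For each mouse and class, counts were added up and fitted with edgeR 4.0.16 (quasi-likelihood, TMM, all 6 mice in 1 fit, R 4.3.3) over genes with at least 3 counts in a class or 10 in all kept nuclei, with Benjamini-Hochberg adjustment over all genes and calls at adjusted p under 0.05. DESeq2 1.42.0 was an alternative. The script was tested on simulated data. Shares were computed as found and after thinning each nucleus to 500 UMIs, both over all nuclei of a class. Thinning to 1000 UMIs was an alternative, which leaves out shallower nuclei. Intervals are 95% exact binomial, and a count of 0 allows 3 counts. Genes given with values were the 10 members and at most 4 of each further list. These were chosen by the lowest adjusted p in macrophage nuclei or, for niche signals, in the class described, except for Lpl. All 10 genes of lipid-associated macrophages are named in the closing paragraph, most of them by direction only. Other genes are named mainly as leading genes of clusters. Coordinates follow GRCm38. The members and lists were chosen with earlier results of these data known. The other alternatives were RLE scaling, every gene with at least 1 count, a replicate block, every barcode, resolution 2, clustering with the members, leaving out each mouse, and, chosen after seeing the data, counting kept-out clusters as macrophages.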

Additional observations from a re-analysis of the deposited data

Results flagged for a closer look

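Adgre1 moved in opposite directions between Ctrl and Pre-T in the monocyte and endothelial classes. In monocyte nuclei both Pre-T mice (330 and 252 CPM, mean 291) lay below both Ctrl mice (571 and 445 CPM). In endothelial nuclei both Pre-T mice (18.2 and 38.2 CPM) lay above both Ctrl mice (13.1 and 11.9 CPM). T nuclei held 14.2 and 9.51 CPM of Adgre1 in Ctrl and 54.7 and 49.0 CPM in Pre-T, so both endothelial Pre-T values lay below the T level and are read as background. The difference between the classes was not tested.

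Marco stood out in nuclei that could not be named, which enter none of the comparisons by class. In Post-T 1 these nuclei held 12.6 CPM of Marco, more than in the other mice, and 69.4% of its 304 Marco UMIs lay there. In Post-T 1 the cluster of 1264 unnamed nuclei led by hepatocyte genes at low depth held 66.9 CPM of Marco, and the cluster of 405 nuclei with markers of both endothelial and erythroid cells held 43.8 CPM. T nuclei of Post-T 1 held 49.3 CPM of Marco, and its macrophage nuclei 21.7 CPM.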

How the results depend on the processing

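For each single member and comparison, 783 of the values under other settings kept their side of the threshold, 67 passed it anew and 20 no longer did. With 1 mouse left out, values also crossed the threshold both ways. A change of direction was counted as a reversal only where either fit was called, so values that kept their side may differ in direction. By that count there was 1 reversal, Timd4 in monocyte nuclei for Pre-T against Ctrl without Ctrl 1 (0.26, in a range from -3.87 to 0.26 over the mice left out). The cause of the changes was not tested. The macrophage class itself changed with the clustering. With the members clustered on, it held 74 nuclei of Post-T 1 and 421 of Post-T 2, against 477 and 263 in the values given. At resolution 2 it held 441 and 321 of these mice, and 1874 nuclei of Pre-T 2 against 879. In macrophage nuclei, calls for Pre-T against Ctrl went from 0 to 3 with every gene of at least 1 count, 3 with the members clustered on and 1 with the Ccr2-led cluster counted, and ranged from 0 to 4 with 1 mouse left out. For Post-T against Ctrl they went from 2 to 4 with DESeq2, 6 with every gene and 6 with the members clustered on (range 0 to 7), and for Post-T against Pre-T from 0 to 4, 8 and 8 (range 0 to 9). In monocyte nuclei, calls for Pre-T against Ctrl went from 3 to 0 with DESeq2 (range 0 to 3). For Post-T against Ctrl they went from 1 to 0 with DESeq2 and 0 with the members clustered on (range 0 to 1), and for Post-T against Pre-T from 1 to 0 and 0 under the same settings, 2 with RLE scaling and 4 at resolution 2 (range 0 to 3). In endothelial nuclei, calls went from 2 to 1 at resolution 2 and 1 without the nuclei of highest doublet score, both for Post-T against Ctrl (range 1 to 3) and against Pre-T (range 0 to 2). Over all kept nuclei, calls for Pre-T against Ctrl went from 0 to 4 with DESeq2 (range 0 to 2), those for Post-T against Ctrl ranged from 0 to 4, and those for Post-T against Pre-T went from 0 to 7 with DESeq2 and 4 with every gene (range 0 to 4). Where a group was left with 1 mouse, that mouse was assumed to vary like the others.

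Replicate numbers are shared between the groups only as labels, and deviations of same-numbered mice correlated at -0.201 to 0.141. With the replicate number as a block, calls in macrophage nuclei were 4 for Post-T against Ctrl and 5 for Post-T against Pre-T, those in monocyte nuclei were 1 for Pre-T against Ctrl and 0 for Post-T against Pre-T, and those over all kept nuclei were 0 for Post-T against Ctrl.

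Of 90 shares of nuclei by group, 59 moved by more than the spread when thinned to 1000 UMIs, 80 when not thinned and 6 without the nuclei of highest doublet score. The direction of Post-T against Ctrl was the same thinned and not for 8 of 10 members in macrophage, 7 in monocyte and 9 in endothelial nuclei. With 2 mice a group and 8 monocyte nuclei in Post-T 2, small differences were not detectable.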

Other observations

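In an unnamed cluster of nuclei shared by Pre-T 1 and Post-T 1, Id3 was 119 CPM over 880 nuclei of Pre-T 1 and 16.4 CPM over 644 nuclei of Post-T 1. With 1 mouse of each group, no test was possible. Both values rest on 880 and 90 UMIs.

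Genes of lipid-associated macrophages were found in nuclei with and without Clec4f. In Pre-T 1, 192 macrophage nuclei had Clec4f and 341 did not, and in Pre-T 2, 353 did and 526 did not. Shares of nuclei and levels scaled to depth did not give the same direction. Trem2 was found in 14.6% of the Clec4f-positive and 9.09% of the Clec4f-negative nuclei of Pre-T 1, but its level was 63.2 CPM with and 76.9 CPM without Clec4f. In Pre-T 2, Trem2 was found in 11% and 5.70%, at 43.0 and 37.9 CPM. Itgax, Spp1, Gpnmb, Cd9, Fabp5 and Cd63 had lower levels with Clec4f in both mice, such as 41.7 and 127 CPM in Pre-T 1 and 58.8 and 105 CPM in Pre-T 2 for Itgax. Lpl and Cd36 had higher levels with Clec4f in both mice, at 694 and 603 CPM in Pre-T 1 and 429 and 261 CPM in Pre-T 2 for Lpl. Lgals3 was lower with Clec4f in Pre-T 1 and higher in Pre-T 2, as was Trem2. No test was made, and Lpl was named after its values were seen.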
